A study of Homo sapiens with 6 samples.

Results

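Complex I, the NADH dehydrogenase of the mitochondrial inner membrane, is described here through its nuclear genes. The genes were chosen by name: every listed gene whose symbol begins with NDUFA, NDUFB, NDUFC, NDUFS or NDUFV was taken, and the antisense RNAs NDUFA6-AS1 and NDUFB2-AS1 were left out. This gave 45 of the 13002 genes listed. They encode 37 subunits of the assembled enzyme, 7 assembly factors with NDUFAF names, and NDUFA4, which carries a complex I name but is now counted as a subunit of complex IV. The rule uses no measured value, though it was set with earlier results of these data known. All 45 genes passed the filter on low values in every comparison.

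Complex I oxidises NADH from fuel breakdown, passes its electrons through flavin and iron-sulphur clusters to ubiquinone, and pumps protons out of the matrix. Its N module binds NADH, its Q module reduces ubiquinone, and its P module is the membrane arm that moves protons. The core subunits carry out the chemistry, the accessory subunits brace them, and assembly factors help to build the modules but are absent from the finished enzyme. The membrane arm sits in a bilayer rich in cardiolipin, the lipid whose acyl chains are remodelled by tafazzin, the product of TAZ.

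RNA was sequenced from OCI-AML2, a cell line of human acute myeloid leukaemia that the labels call engineered and stem-like. Lentivirus brought in TAZ shRNA1, TAZ shRNA2 or a control hairpin, and each of these 3 groups has a library A and a library B. The labels call the control hairpin scramble, while its columns in the deposited tables are named GFP. All groups carry a hairpin vector and underwent 3 days of puromycin selection at 2.0 µg/mL. No label says whether A and B were separate cultures, so the spread behind the p-values may be technical.

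Values are RPKM, reads scaled by gene length and library size. Each library held 18819326 to 20979942 reads in listed genes, and a complex I gene had between 114 and 8731 of them. TAZ stood at 4.02 and 4.10 RPKM in the shRNA1 libraries and 1.47 and 2.13 RPKM in the shRNA2 libraries, against 11.3 and 11.9 RPKM in the control libraries. Its log2 fold change was -1.41 with shRNA1 (adjusted p = 0.00205) and -2.41 with shRNA2 (adjusted p = 0.00245). Of 10 myeloid marker genes 9 were listed. Their summed level was 5647 and 5085 RPKM with shRNA1 and 4611 and 3836 RPKM with shRNA2, against 1145 and 986 RPKM in the control, and LYZ made up most of it in every library. Of the 8 that were tested, CD33, CSF1R and LYZ rose with shRNA1 and LYZ and CD14 with shRNA2, MPO fell with both (log2 fold change -1.05, adjusted p = 0.00528, and -2.68, adjusted p = 0.00245), and 4 and 5 were not called. Of 5 T cell markers 1 was listed, at 0.131 and 0 RPKM with shRNA1, 0.0694 and 0.269 RPKM with shRNA2, and 0.981 and 0.732 RPKM in the control. The 3 listed of 4 B cell markers summed to 0.49 to 1.25 RPKM per library, and none of 5 erythroid or 6 fibroblast and epithelial markers was listed. The part of these shifts in the results below was not tested.

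In control cells the complex I genes were among the more abundant transcripts. Their median control level was 86.4 RPKM, against 6.88 RPKM for all listed genes, and 29 of the 45 lay above the 90th percentile of listed genes. Levels per length spanned 190-fold. The most abundant was NDUFB9, a membrane-arm subunit that binds an acyl carrier protein, with 624 and 520.1 RPKM in the control libraries. NDUFA13, a proximal membrane-arm subunit also known as GRIM-19, stood at 462 and 308 RPKM, and NDUFS5, a disulphide-linked subunit of the intermembrane space face, at 411 and 312 RPKM. The ranges of these last 2 genes overlapped, so their order is not settled by the libraries. At the low end, the assembly methyltransferase NDUFAF7 had 3.44 and 2.59 RPKM and the assembly hydroxylase NDUFAF5 had 4.96 and 5.35 RPKM, the only members below the median of listed genes. The N module accessory subunit NDUFV3 was next, at 14.3 and 12.2 RPKM, and its range overlapped that of the assembly factor NDUFAF1 (14.3 and 12.9 RPKM).

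Members of one role did not share one level. The 11 accessory subunits of the distal membrane arm ran from 50.3 RPKM (NDUFB6) to 572 RPKM (NDUFB9) as control means, the 9 of the proximal arm from 18.0 RPKM (NDUFC2) to 385 RPKM (NDUFA13), and the 7 NDUFAF factors from 3.01 RPKM (NDUFAF7) to 70.6 RPKM (NDUFAF2). In fold terms the core subunits covered a narrower span than these larger groups. So did the 4 accessory subunits of the Q module, from 25.3 RPKM (NDUFA5) to 76.1 RPKM (NDUFA7), so a narrow span is not particular to core subunits. The 4 core subunits of the Q module lay between 62.4 RPKM (NDUFS7) and 138 RPKM (NDUFS3). The 3 of the N module lay between 50.6 RPKM (NDUFS1) and 197 RPKM (NDUFV2).

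The comparison of each hairpin with the control asked whether lowering TAZ changed the transcripts of complex I. Most of them were not called. Fits with a replicate block for the letters A and B called more members and more of all genes, as given in the closing section. With shRNA1, 2 of 45 members fell (NDUFAF2 and NDUFA7) and 0 rose, and 18.6% of all 10613 genes tested were called, 9.99% higher and 8.58% lower. With shRNA2, 1 of 45 fell (NDUFAF2) and 0 rose, while 15.7% of 10659 genes were called, 8.12% higher and 7.61% lower. At an unadjusted p under 0.05, 0 members were higher and 5 lower with shRNA1 (18.8% and 17.3% of all genes), and 2 were higher and 1 lower with shRNA2 (16.7% and 16.1%). The libraries of shRNA1 and control did not overlap for 21 of 45 members that were lower and 5 that were higher, against 32.5% and 33.5% of all genes. Those of shRNA2 and control did not overlap for 6 of 45 that were lower and 6 that were higher, against 31.1% and 31.0% of all genes. Whether members were called at another rate than other genes was not tested. In bulk RNA, fewer cells of a type and less RNA per cell cannot be told apart.

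The counts with shRNA1 changed when a library was left out, for members and for all genes. Such a fit leaves a lone library in a group, with no measured spread. The counts therefore cannot show whether the calls rested on the library left out. Across these fits, the shRNA1 log2 fold change lay between -0.79 and -0.56 for NDUFAF2 and between -0.70 and -0.38 for NDUFA7. Without shRNA1 A or without shRNA1 B, 0 members were called, when 7.59% and 4.35% of all genes were. Without control A there were 3 (31.1% of all genes), and without control B 24 members were called, 23 of them lower, when 4397 of 10619 genes (41.4%) were called in all. With shRNA2, 0 members were called without shRNA2 B (7.75% of all genes), and 2 without control B (18.8%).

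The fold changes of the members were small. The median log2 fold change of the 45 genes was -0.21 with shRNA1, with 34 negative and 11 positive, and -0.09 with shRNA2, with 31 negative and 14 positive. The medians of all genes tested were 0.00 in both. No member changed by as much as 2-fold in its estimate. With shRNA1 the 95% interval lay within 1.5-fold in either direction for 25 members (44.0% of all genes). For all 45 it left out a rise of more than 1.5-fold, a count not made for all genes. These intervals leave in the trend with gene length described below, and with it removed 5 members were called higher with shRNA1. With shRNA2 the interval lay within 1.5-fold for 15 members (33.3% of all genes). For the other 20 and 30 members, NDUFAF2 among them, the interval does not leave out a change of more than 1.5-fold. The authors' deposited table, which rests on another test, lists 14 members as lower and 0 as higher with shRNA1 (17.1% and 18.8% of its genes), and 6 as lower and 4 as higher with shRNA2 (18.9% and 19.9%). Of these, 4 members are lower in both of its comparisons: NDUFAF2, NDUFB11, NDUFC1 and NDUFC2. Both comparisons share the control libraries, and the share of all genes lower in both was not counted. The 4 names are therefore not read as a result about complex I.

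**Figure D1:**
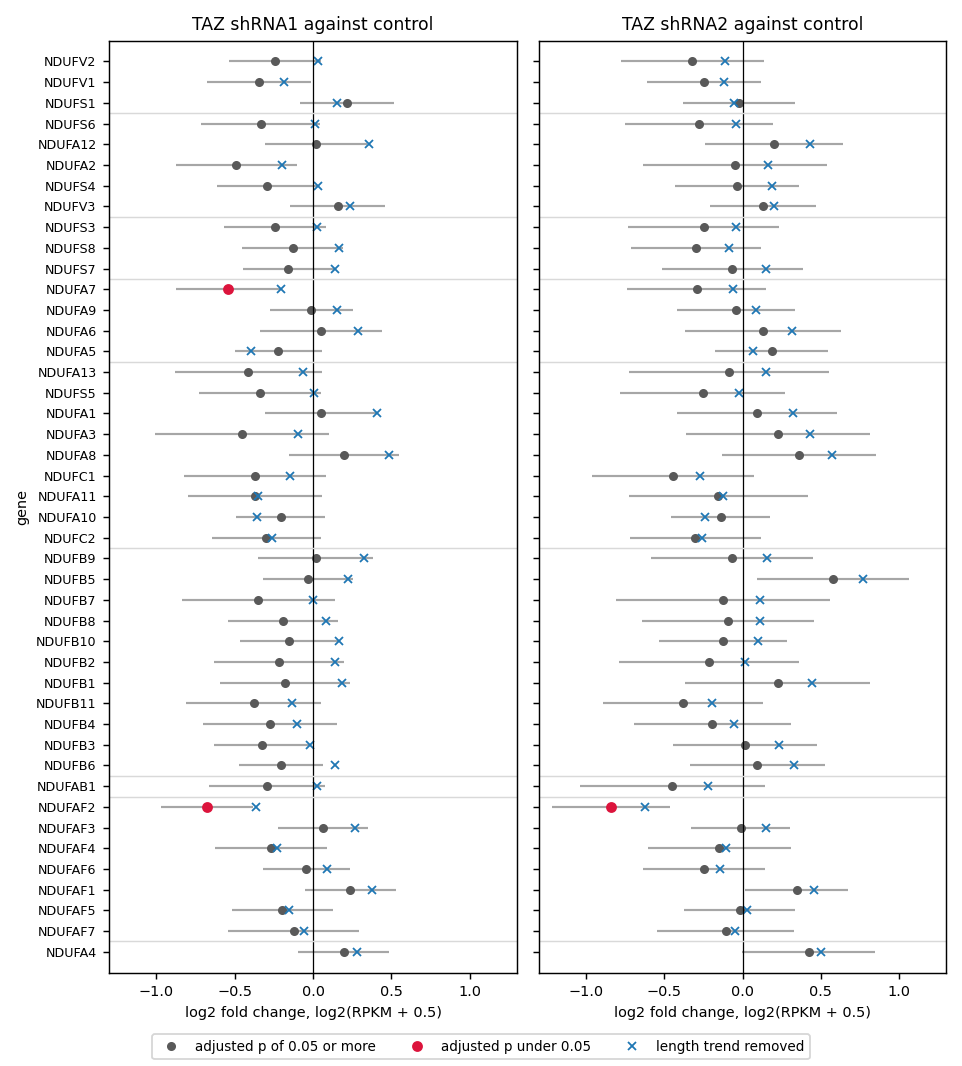
Log2 fold change (horizontal axis, on log2(RPKM + 0.5)) of 44 complex I genes, with TAZ shRNA1 against control on the left and TAZ shRNA2 against control on the right; grey bars are 95% intervals, red points have a limma adjusted p under 0.05, and blue crosses are estimates with the gene length trend removed. Genes run by role from the N module at the top to NDUFA4, and NDUFAF2 is red in both panels, at -0.68 and -0.84.

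NDUFAF2 is a late assembly factor, a paralogue of the subunit NDUFA12 that holds its place while the N module is added. It had 44.8 and 43.0 RPKM in the shRNA1 libraries and 42.6 and 35.8 RPKM in the shRNA2 libraries, against 76.2 and 65.0 RPKM in the control libraries. All 4 knockdown libraries lay below both control libraries. The log2 fold change was -0.68 with shRNA1 (SE 0.125, adjusted p = 0.0144) and -0.84 with shRNA2 (SE 0.162, adjusted p = 0.0168). It kept its direction in all 17 alternatives of each comparison. The shRNA1 call was lost without shRNA1 A (-0.70, adjusted p = 0.057) and without shRNA1 B (-0.65, adjusted p = 0.113), and the shRNA2 call without shRNA2 B (-0.72, adjusted p = 0.0526). With the length trend removed the shRNA1 value was -0.36 (adjusted p = 0.0411). The hairpins did not differ detectably in it (log2 fold change of shRNA2 over shRNA1 -0.17, SE 0.139, adjusted p = 0.5).

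NDUFAF2 starts back to back with ERCC8, a gene of transcription-coupled DNA repair. The stretch between the starts of both genes is printed because both genes leave from it in opposite directions, and only NDUFAF2 was called. It covers 55 bases at chr5:60945074-60945128 of GRCh38.p14, plus strand, from RefSeq, with 56.4% G and C. Capitals mark the letters CCAAT on either strand, a motif chosen after the sequence was seen.

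NDUFAF2 and ERCC8, between the starts: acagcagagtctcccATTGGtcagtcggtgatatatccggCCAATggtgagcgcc

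It holds 2 such boxes facing opposite ways. CCAAT was found in 28.2% of the 300-base promoter windows of the 39 members that could be matched, against 37% of listed genes, so the motif is common. ERCC8 had 8.38 and 7.58 RPKM with shRNA1, 6.25 and 5.37 RPKM with shRNA2, and 6.25 and 7.72 RPKM in the control. Its log2 fold change was 0.19 with shRNA1 (adjusted p = 0.404) and -0.24 with shRNA2 (adjusted p = 0.353).

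The other assembly factors were not called with either hairpin. NDUFAF1, which works in the intermediate that builds the membrane arm, had 16.8 and 15.5 RPKM with shRNA1 and 18.2 and 16.6 RPKM with shRNA2, against 14.3 and 12.9 RPKM in the control. All 4 knockdown libraries lay above both control libraries, with log2 fold changes of 0.24 (adjusted p = 0.209) and 0.34 (adjusted p = 0.139). NDUFAF3 and NDUFAF4 act together on the Q module. NDUFAF3 had 41.2 and 35.3 RPKM with shRNA1, 37.2 and 35.2 RPKM with shRNA2, and 36.1 and 36.9 RPKM in the control. NDUFAF4 had 24.4 and 20.1 RPKM with shRNA1, 28.6 and 20.3 RPKM with shRNA2, and 29.6 and 24.2 RPKM in the control. Both overlapped between groups. NDUFAF5, which hydroxylates the core subunit NDUFS7, had 4.48 and 4.38 RPKM with shRNA1 and 5.27 and 4.89 RPKM with shRNA2, against 4.96 and 5.35 RPKM in the control. NDUFAF6, needed early for the membrane arm, had 15.1 and 14.2 RPKM with shRNA1, 14.5 and 10.95 RPKM with shRNA2, and 15.1 RPKM in both control libraries. NDUFAF7, a methyltransferase that acts early in the build, had 2.50 and 2.91 RPKM with shRNA1 and 2.79 and 2.68 RPKM with shRNA2, against 3.44 and 2.59 RPKM in the control. The log2 fold changes of these 5 factors lay between -0.27 and 0.06.

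Among the 7 nuclear core subunits none was called in either comparison. NDUFV1, which binds NADH and the flavin, had 98.4 and 81.8 RPKM with shRNA1 and 98.8 and 93.3 RPKM with shRNA2, against 123 and 106 RPKM in the control. Its partner NDUFV2, an iron-sulphur protein, had 166 and 167 RPKM with shRNA1 and 183 and 136 RPKM with shRNA2, against 209.6 and 185 RPKM in the control. For both, all 4 knockdown libraries lay below both control libraries, with log2 fold changes of -0.34 and -0.25 for NDUFV1 (adjusted p = 0.129 and 0.314) and -0.24 and -0.32 for NDUFV2 (adjusted p = 0.206 and 0.296). NDUFS1, which carries electrons onward from them, had 56.5 and 60.9 RPKM with shRNA1 and 52.0 and 47.5 RPKM with shRNA2, against 46.5 and 54.8 RPKM in the control. It was the only core subunit of the N module with a positive value with shRNA1, 0.22 (adjusted p = 0.263).

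In the Q module, NDUFS3, the scaffold on which the Q module starts, had 117 and 116 RPKM with shRNA1, 137 and 98.1 RPKM with shRNA2, and 153 and 124 RPKM in the control. NDUFS7, which holds the last iron-sulphur cluster of the chain, had 59.9 and 52.1 RPKM with shRNA1, 71.5 and 49.8 RPKM with shRNA2, and 64.6 and 60.2 RPKM in the control. NDUFS8, which holds the clusters before it, had 85.7 and 72.4 RPKM with shRNA1, 79.8 and 61.4 RPKM with shRNA2, and 92.2 and 80.6 RPKM in the control. Their log2 fold changes lay between -0.30 and -0.06. In all, members outside the range of both controls in all 4 knockdown libraries numbered 4 below (NDUFV1, NDUFV2, NDUFA10 and NDUFAF2) and 4 above (among them NDUFV3, NDUFA4 and NDUFAF1), where 19.7% and 21.2% of all genes did so.

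The 30 accessory subunits included the second member called with shRNA1. NDUFA7, an accessory subunit of the Q module, had 54.2 and 49.6 RPKM with shRNA1 and 70.7 and 53.9 RPKM with shRNA2, against 84.6 and 67.7 RPKM in the control. Both shRNA1 libraries lay below both controls, while shRNA2 A lay within the control range. The log2 fold change was -0.54 with shRNA1 (SE 0.141, adjusted p = 0.0389) and -0.29 with shRNA2 (SE 0.19, adjusted p = 0.322). The shRNA1 call was lost without shRNA1 A (-0.61, adjusted p = 0.11), without shRNA1 B (-0.48, adjusted p = 0.272), in a fit of all 6 libraries (adjusted p = 0.0561) and with the length trend removed (-0.20, adjusted p = 0.165). Exons of NDUFA7 overlap those of the ribosomal protein gene RPS28 on the opposite strand in GENCODE 29. RPS28 stood at 1326 and 1265 RPKM with shRNA1, 1212 and 1035 RPKM with shRNA2 and 1703 and 1230.0 RPKM in the control, and the strand setting of the counting is not given in the sources used here.

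Other accessory subunits with the lowest values were not called. NDUFA2, a thioredoxin-like subunit of the N module, had 60.9 and 63.1 RPKM with shRNA1 and 106 and 66.9 RPKM with shRNA2, against 103 and 74.0 RPKM in the control (log2 fold change -0.49, adjusted p = 0.0792, and -0.05, adjusted p = 0.908). NDUFC1, a small subunit of the proximal membrane arm, had 41.0 and 33.6 RPKM with shRNA1 and 41.0 and 30.2 RPKM with shRNA2, against 58.0 and 39.8 RPKM in the control (-0.37, adjusted p = 0.207, and -0.44, adjusted p = 0.209). NDUFAB1 is the mitochondrial acyl carrier protein, which is bound in complex I and also serves fatty acid and iron-sulphur cluster synthesis. It had 176 and 175 RPKM with shRNA1 and 199 and 125 RPKM with shRNA2, against 248 and 187 RPKM in the control (-0.29, adjusted p = 0.22, and -0.45, adjusted p = 0.261). For NDUFAB1 and NDUFC1, one shRNA2 library lay within the control range and the other below it.

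The largest positive value was that of NDUFB5, a subunit of the distal membrane arm. It had 223 and 220.0 RPKM with shRNA1 and 397 and 287 RPKM with shRNA2, against 232 and 221 RPKM in the control. Both shRNA2 libraries lay above the other 4. Its log2 fold change with shRNA2 was 0.58 (SE 0.209, adjusted p = 0.101), and it passed the threshold in 6 of 17 alternatives. It passed with the length trend removed (0.77, adjusted p = 0.00616), with quantile normalization (0.67, adjusted p = 0.0144) and with scaling to the reads in listed genes (0.63, adjusted p = 0.0174). It also passed in a fit of all 6 libraries (adjusted p = 0.0426) and with a replicate block, described below, with or without the length trend. It did not pass in the others, among them median scaling (0.55, adjusted p = 0.11) and limma-voom on the recovered reads (0.58, adjusted p = 0.0574). The log2 fold change was 0.34 without shRNA2 A and 0.81 without shRNA2 B. NDUFA4, a subunit of complex IV, had 76.3 and 83.3 RPKM with shRNA1 and 108 and 80.9 RPKM with shRNA2, against 74.0 and 65.4 RPKM in the control. Its values were 0.19 (adjusted p = 0.289) and 0.42 (adjusted p = 0.155). NDUFA8, a disulphide-linked subunit of the proximal arm, had 59.9 and 56.4 RPKM with shRNA1 and 77.5 and 55.0 RPKM with shRNA2, against 58.0 and 44.3 RPKM in the control (0.20, adjusted p = 0.377, and 0.36, adjusted p = 0.272). NDUFV3 had 14.6 and 14.9 RPKM with shRNA1 and 14.4 and 14.5 RPKM with shRNA2, all above the 14.3 and 12.2 RPKM of the control (0.16 and 0.13).

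The most abundant accessory genes were not called either. NDUFB9 had 589 and 564 RPKM with shRNA1 and 607 and 488 RPKM with shRNA2, against 624 and 520.1 RPKM in the control. NDUFA13 had 291 and 276 RPKM with shRNA1 and 432 and 292 RPKM with shRNA2, against 462 and 308 RPKM in the control. NDUFS5 had 289.8 and 277 RPKM with shRNA1 and 343 and 262 RPKM with shRNA2, against 411 and 312 RPKM in the control. Their log2 fold changes lay between -0.41 and 0.02. In NDUFA13 and NDUFS5 both shRNA1 libraries lay below both controls.

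**Figure D2:**
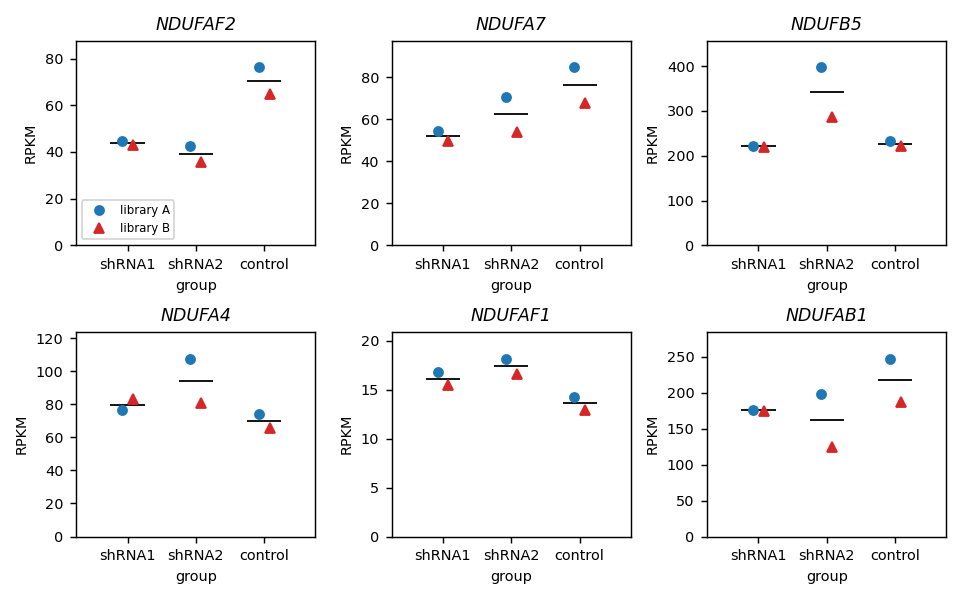
RPKM (vertical axis from 0) of 6 complex I genes in each library, grouped as shRNA1, shRNA2 and control; blue circles are libraries A, red triangles libraries B and black lines the mean of 2. NDUFAF2 is lower in all 4 knockdown libraries (35.8 to 44.8 RPKM) than in the control (65.0 and 76.2 RPKM), and NDUFB5 is at 397 and 287 RPKM in the shRNA2 libraries, above the other 4, with an adjusted p of 0.101 against the control.

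Directions across the members followed libraries as much as groups. The summed level of the 45 genes was 4505 and 4294 RPKM in shRNA1 A and B, 5562 and 4138 RPKM in shRNA2 A and B, and 5639 and 4476 RPKM in control A and B. Control A was the highest of the 6 libraries for 23 members and shRNA2 A for 17, and shRNA2 B was the lowest for 21 and shRNA1 B for 11. Library A exceeded library B for 35 of 45 members with shRNA1, 44 with shRNA2 and 40 in the control, by a median of 0.07, 0.39 and 0.29 on the log2 scale. The same medians were 0.01, 0.03 and -0.01 for all genes, and 0.06, 0.33 and 0.35 for genes under 1000 bases. The median change with shRNA2 was -0.26 without shRNA2 A, 0.0912 without shRNA2 B, 0.0647 without control A and -0.22 without control B, so its sign was set by single libraries. That with shRNA1 was negative without any one library, between -0.33 and -0.0938.

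**Figure D3:**
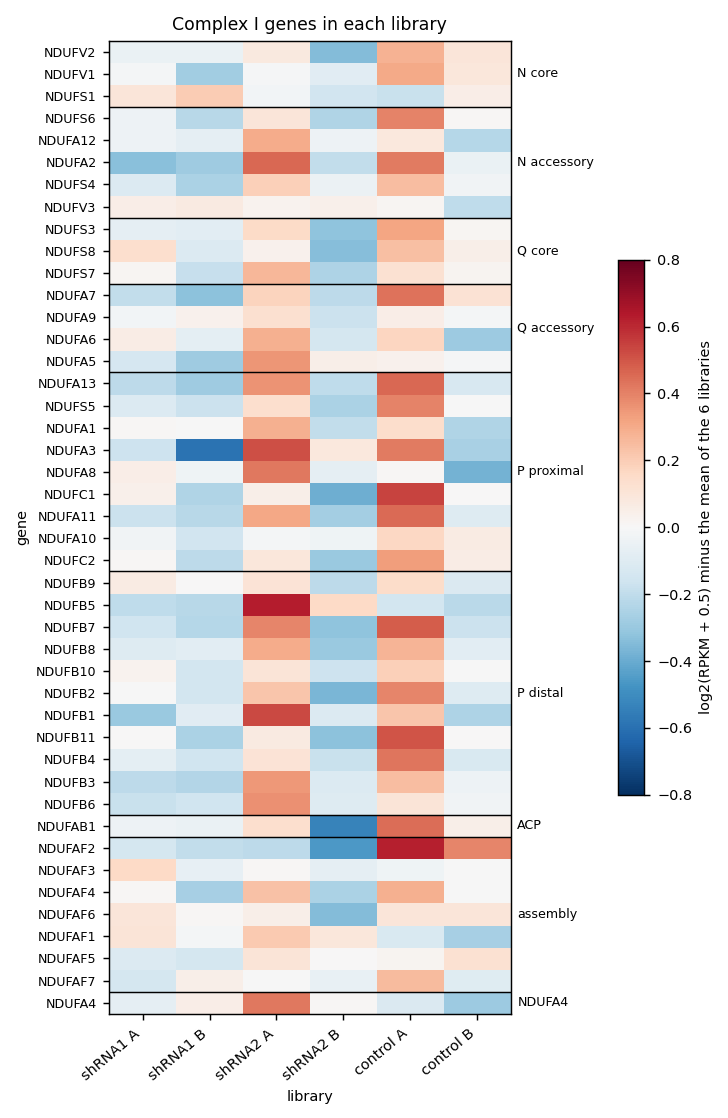
Deviation of 44 complex I genes in each library from its mean over 6 libraries, on log2(RPKM + 0.5), with red above and blue below that mean; columns are shRNA1 A and B, shRNA2 A and B, and control A and B, and rows are grouped by role. The shRNA2 A and control A columns are mostly red (39 of 44 genes above their mean in each), and the shRNA1 B and shRNA2 B columns mostly blue (7 genes above the mean in each).

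Complex I genes are short, and short genes as a whole moved in the same libraries. The lengths behind the RPKM values had a median of 951 bases for members (354 to 5790) and 2932.5 bases for all genes tested, and 24 of 45 members, against 7.35% of all genes, were under 1000 bases. Library values changed with length by 0.05 and 0.08 per doubling of length in shRNA1 A and B, -0.04 and 0.06 in shRNA2 A and B, and -0.14 and -0.01 in control A and B, on the log2 scale relative to the mean of 6 libraries. The median deviation of all 784 tested genes under 1000 bases was -0.11 and -0.16 in shRNA1, 0.12 and -0.19 in shRNA2, and 0.35 and 0.02 in control A and B. That of the complex I genes was -0.04 and -0.15 in shRNA1, 0.15 and -0.18 in shRNA2, and 0.24 and -0.03 in the control. With the length trend of each library removed, the members' deviation lay between -0.03 and 0.08 in all 6 libraries.

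**Figure D4:**
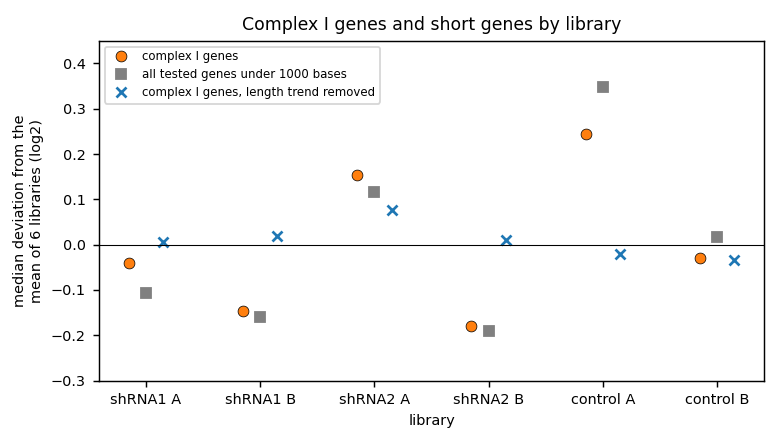
Median deviation from the mean of 6 libraries (log2, vertical axis) in each library, for the 45 complex I genes (orange circles), all 784 tested genes under 1000 bases (grey squares) and the complex I genes with the length trend removed (blue crosses). Control A is the highest for both the complex I genes (0.24) and the short genes (0.35), and the crosses stay between -0.03 and 0.08.

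Medians of members and of all genes were set side by side within classes of length. Under 600 bases, the median log2 fold change with shRNA1 was -0.33 for 11 members and -0.32 for all 281 genes. Between 600 and 1000 bases it was -0.24 for 13 members and -0.32 for 503 genes. Between 1000 and 1500 bases it was -0.03 for 5 members and -0.25 for 955 genes, and between 1500 and 2500 bases -0.08 for 12 members and -0.10 for 2560 genes. With shRNA2 the medians for members and all genes were -0.09 and -0.16 under 600 bases, -0.09 and -0.25 between 600 and 1000, -0.01 and -0.21 between 1000 and 1500, and -0.07 and -0.09 between 1500 and 2500. The longest members, NDUFA5 at 5790 bases and NDUFA10 at 4915 bases, had -0.22 and -0.21 with shRNA1, where all genes between 4000 and 6000 bases had a median of 0.16. With shRNA2 they had 0.19 and -0.14, where that median was 0.10.

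**Figure D5:**
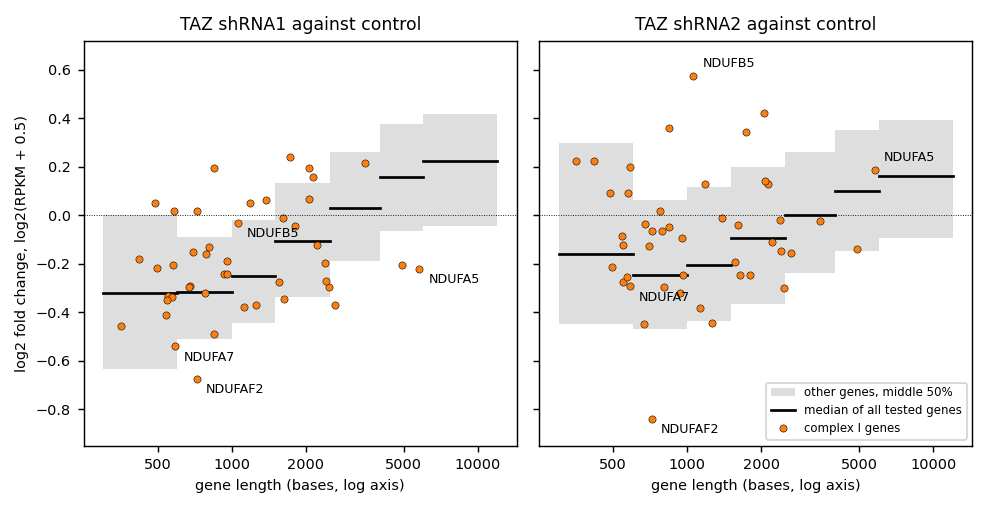
Log2 fold change (vertical axis) against gene length in bases (log axis), with TAZ shRNA1 on the left and TAZ shRNA2 on the right, both against control; orange points are the complex I genes, black bars the median of all tested genes in a class of length, and grey boxes the middle 50% of the other genes of that class. The class medians run from -0.32 for the shortest class to 0.22 for the longest with shRNA1 and from -0.16 to 0.16 with shRNA2, where the lowest is -0.25 between 600 and 1000 bases, and NDUFAF2 lies below the grey box of its class.

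Removing the trend turned the sign of the members' medians. They became 0.0285 with shRNA1 (27 positive, 18 negative) and 0.0884 with shRNA2 (26 positive, 19 negative). The calls then split the other way. With shRNA1, 5 members rose (NDUFA1, NDUFA12, NDUFA8, NDUFAF1 and NDUFB9) and NDUFAF2 fell, where 10.7% of all genes rose and 8.91% fell. With shRNA2, 6 rose (NDUFA12, NDUFA4, NDUFA8, NDUFAF1, NDUFB1 and NDUFB5) and NDUFAF2 fell, where 12.3% rose and 11.2% fell. NDUFAF2 was thus the only member called in the same direction, lower, with and without the trend and with both hairpins. The hairpins were compared with the same control libraries, so these calls are not independent. The share of all genes called in this way was not counted.

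The direct comparison of shRNA2 with shRNA1 called 0 of 45 members by limma, where 10.9% of 10660 genes were called, 4.78% higher and 6.10% lower. At an unadjusted p under 0.05, 3 members were higher and 0 lower (11.9% and 14.3% of all genes), and limma-voom on the recovered reads called 1, NDUFB5. The median log2 fold change was 0.08, with 31 positive and 14 negative, and was -0.11 without shRNA2 A and 0.23 without shRNA2 B. NDUFB5 had the highest level in shRNA2 of these, with a log2 fold change of 0.61 over shRNA1 (SE 0.173, adjusted p = 0.0596). NDUFA3, a short proximal-arm subunit, had 123 and 91.2 RPKM with shRNA2, against 76.6 and 56.9 RPKM with shRNA1 (0.68, SE 0.249, adjusted p = 0.123). NDUFA5, a Q module subunit, had 32.1 and 25.9 RPKM with shRNA2, against 22.8 and 20.5 RPKM with shRNA1 (0.41, SE 0.138, adjusted p = 0.1). The hairpins did not overlap for 9 of 45 members that were higher with shRNA2 and 3 that were lower, against 27.4% and 31.2% of all genes. With the length trend removed NDUFB5 was the only member called (0.55, adjusted p = 0.0111), where 7.91% of genes rose and 9.01% fell. For 30 of 45 members the 95% interval of the difference lay within 1.5-fold, against 52.2% of all genes.

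Genes that serve complex I without an NDUF name were examined from lists. Of 15 other assembly factors, among them ACAD9, ECSIT and TMEM126B of the membrane-arm intermediate, 0 were called in any of the 3 comparisons. Of all genes, 18.6% were called with shRNA1, 15.7% with shRNA2 and 10.9% between the hairpins. At an unadjusted p under 0.05, 1 of the 15 factors was higher and 2 lower with shRNA1 (18.8% and 17.3% of all genes). With shRNA2, 1 was higher and 0 lower (16.7% and 16.1%), and between the hairpins 0 either way (11.9% and 14.3%). Their median log2 fold changes were -0.16 with shRNA1 and -0.15 with shRNA2, against 0.00 for all genes in both. With the length trend removed they were 0.02 and -0.03. This list holds C17orf89, now named NDUFAF8. The 7 mitochondrially encoded ND subunits were not analysed here, since none is listed. Of 13 genes of iron-sulphur cluster supply, 2 fell with shRNA1 (8.58% of all genes) and 0 were called with shRNA2 (15.7% of all genes). The mitochondrial ferredoxin FDX1L had 6.62 and 4.90 RPKM with shRNA1 and 7.15 and 6.62 RPKM with shRNA2, against 10.7 and 9.02 RPKM in the control (log2 fold change -0.74, adjusted p = 0.0298, and -0.48, adjusted p = 0.0716). BOLA3, which helps to insert clusters into client proteins, had 51.6 and 45.3 RPKM with shRNA1 and 80.3 and 55.5 RPKM with shRNA2, against 84.2 and 67.1 RPKM in the control (-0.63, adjusted p = 0.0279, and -0.17, adjusted p = 0.609). Both genes are short, FDX1L at 842 bases and BOLA3 at 554 bases. In their classes of length the median of all genes with shRNA1 was -0.32. The part of length in these 2 falls was not tested.

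Of 10 regulators of mitochondrial gene expression 9 were tested, and PPARGC1A was under the filter. MYC, a growth regulator, had 138 and 127 RPKM with shRNA1 and 57.4 and 68.7 RPKM with shRNA2, against 203 and 240.0 RPKM in the control, and fell with both hairpins (-0.73, adjusted p = 0.0147, and -1.81, adjusted p = 0.00245). ESRRA, a nuclear receptor acting on oxidative genes, had 20.9 and 18.3 RPKM with shRNA2, against 14.0 and 12.8 RPKM with shRNA1 and 14.1 and 13.3 RPKM in the control. It was higher with shRNA2 than with shRNA1 (0.53, adjusted p = 0.0317), and its value against the control was 0.50 (adjusted p = 0.0519). NRF1, GABPA, GABPB1, YY1 and TFAM were not called in any comparison.

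Letters of known factor motifs were searched on both strands in 300-base windows, 250 before and 50 after the start, of the 39 members with a RefSeq promoter (GRCh38.p14). The longer YY1 form contains the shorter one, the longer NRF1 form need not contain TGCGCA, and none of the other motifs is contained in another. The YY1 letters ATGGCGG were found in 14 of 39 members (35.9%), 10.5% of listed genes and 5.72% of all promoters. With AAG before and C after them they were found in 5.13%, 2.09% and 0.916%. The NRF1 letters TGCGCA were found in 12 members (30.8%), 13.8% of listed genes and 8.42% of all promoters. The longer NRF1 form, GCGCA and GCGC with any base between them, was found in 17.9%, 12.1% and 6.28%. The ETS letters CCGGAAG were found in 15.4%, 19.8% and 10.7%, and the E-box CACGTG in 10.3%, 10.3% and 7.43%. The shorter letters of NRF1 and YY1 were searched after the longer ones, and no test was made. The NDUFAF2 window held none of these.

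Some members share a start region with another coding gene, and how often all genes do so was not counted. In GENCODE 29, 18 members begin within 1000 bases of an oppositely directed coding gene, and 16 such partners are listed. With shRNA1, 1 of 14 tested partners rose and 4 fell, where 9.99% and 8.58% of all genes did. With shRNA2, 1 of 15 rose and 2 fell, where 8.12% and 7.61% of all genes did. NDUFB5 and its partner MRPL47, a mitochondrial ribosomal protein, had unlike values. MRPL47 had 89.2 and 87.0 RPKM with shRNA1 and 117 and 99.3 RPKM with shRNA2, against 163 and 140.2 RPKM in the control (-0.77, adjusted p = 0.00956, and -0.49, adjusted p = 0.0924). ESF1, a nucleolar protein that starts beside NDUFAF5, fell with both hairpins (-0.70, adjusted p = 0.0172, and -0.78, adjusted p = 0.0145), and NDUFAF5 had -0.20 and -0.02. WDR4, which starts beside NDUFV3, fell by 0.49 (adjusted p = 0.0333) and 0.62 (adjusted p = 0.0287) on the log2 scale. All 4 of NDUFV3's knockdown libraries lay above its controls. CPSF2, beside NDUFB1, rose with both hairpins (0.57, adjusted p = 0.0302, and 0.60, adjusted p = 0.0406), and NDUFB1 had -0.18 and 0.22. CELF1, beside NDUFS3, fell with shRNA1 (-0.50, adjusted p = 0.0345), where NDUFS3 had -0.24. OSCAR, beside NDUFA3, shared its sign: -0.44 and -0.46 with shRNA1, 0.49 and 0.23 with shRNA2, none called. Whether partners move together was not tested. Exons of 14 members overlap those of another listed gene, and 19 members have named pseudogenes, 59 in all, of which none is listed. Reads shared with such copies could not be separated.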

How the data were processed

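RNA-seq of 6 OCI-AML2 libraries, 2 per group, was analysed. Per the submitters' processing notes, the tools were HTSeq 0.6.1p2, DESeq 1.18.0, edgeR 3.8.6, TopHat2 2.0.11 and Trim Galore 0.4.0 on build hg19, with no role stated. The authors deposited 1 table per hairpin with the RPKM of its 4 libraries. The deposited tables also hold the authors' log2 fold change, average log2 CPM, likelihood-ratio score, p-value and adjusted p-value. Control columns were identical in both tables. From 13004 rows, 2 exact repeats were dropped.

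Every RPKM was a whole number of reads within 0.05 reads once gene lengths and library denominators were solved for, which gave depth and length. The length had a single solution for 74.0% of genes and 43 members, not for NDUFB6 and NDUFS6. Denominators were 0.951 to 1.07 times the reads in listed genes. That of control A, 17891370, was below its 18819326 reads in listed genes, so the denominators are not plain totals of reads.

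Values were taken as log2(RPKM + 0.5), which understates folds of low genes, for genes averaging 1 RPKM or more. Tests were two-sided in limma 3.58.1 under R 4.3.3, with a trended prior variance and p-values adjusted by Benjamini-Hochberg over all genes (threshold 0.05), on 4 libraries per hairpin and on all 6 for shRNA2 against shRNA1. Every adjusted p is limma's unless the authors' is named. The script was tested on simulated counts. These held no length trend and no difference shared by the letters A and B, so the test does not bear on either. The length trend was removed per library by lowess over log2 length.

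Members named with all values are those called, the 3 highest and 3 lowest in the control, the 3 largest changes each way per hairpin, core subunits, NDUFAF factors and NDUFAB1, plus NDUFA3 and NDUFA5, named after their values were seen; 1 member enters every count but is not reported by name here. Members, lists, tests and alternatives were chosen with earlier results of these data known. Overlaps and starts come from GENCODE 29, on another build than hg19.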

Additional observations from a re-analysis of the deposited data

Results flagged for a closer look

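No complex I gene was called in the direct comparison of shRNA2 with shRNA1. The 1160 genes called there include TAZ, 4 myeloid markers, MYC, ESRRA and OSCAR. The log2 fold change of shRNA2 over shRNA1 was -1.001 for TAZ (adjusted p = 0.00801), -1.07 for MYC (adjusted p = 0.00428) and 0.53 for ESRRA (adjusted p = 0.0317). It was 0.93 for OSCAR, an immune receptor gene that starts beside NDUFA3 (adjusted p = 0.00993), which had 7.65 and 8.83 RPKM with shRNA2 and 4.35 and 3.84 RPKM with shRNA1. Of the myeloid markers it was 2.12 for CD14 (adjusted p = 0.00528), -1.63 for MPO (adjusted p = 0.00137), -0.87 for CSF1R (adjusted p = 0.046) and -0.47 for CD33 (adjusted p = 0.0357). Groups of 2 libraries are too small to look for a single library apart from its group.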

How the results depend on the processing

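Alternatives were another pseudocount (0.1 or 1), no filter or one at 5 RPKM, quantile normalization, median scaling, the length trend removed, robust empirical Bayes, a replicate block, limma-voom on recovered reads, fits with more or fewer groups, and each library left out. Scaling to reads in listed genes and the length trend removed together with a replicate block were added after seeing the data. In limma-voom the authors' denominators stood for library sizes.

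The letters A and B are not said to mark a shared batch, and with 2 pairs per comparison they were not taken as pairing. Differences of A and B over 10660 genes, which are not independent, correlated at 0.37 between the hairpins, 0.26 between shRNA1 and control, and 0.42 between shRNA2 and control. With the replicate block the members called numbered 10 with shRNA1 (all lower), 12 with shRNA2 (4 higher, 8 lower) and 3 between the hairpins (all higher), when 35.6%, 39.1% and 22.5% of all genes were called. NDUFB5 was then called with shRNA2 (adjusted p = 0.00207). With the replicate block and the length trend removed they numbered 8 (5 higher, 3 lower) and 10 (9 higher, 1 lower), when 25.7% and 33.3% of all genes were called, and the medians were 0.0285 and 0.0884.

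For shRNA1, against 2 called, the length trend removed gave 6 and a fit of all 6 libraries 1, and leaving out a library gave 0 to 24. Its median of -0.21 became 0.0285 with the length trend removed, and lay between -0.33 and -0.0938 with a library left out. For shRNA2, against 1 called, quantile normalization and scaling to listed reads gave 3 each, the length trend removed 7 and all 6 libraries 2, and leaving out a library gave 0 to 2. Its median of -0.086 became 0.0281 with quantile normalization and 0.0884 with the length trend removed, and lay between -0.26 and 0.0912 with a library left out. Between the hairpins, against 0 called, quantile normalization gave 2, and the length trend removed, limma-voom, scaling to listed reads and the 4 knockdown libraries alone gave 1 each. Leaving out a library gave 0 to 1, and a median between -0.11 and 0.23 against 0.08. The causes of these differences were not tested beyond the length values given above. The other settings left counts within 1.5 times and kept the sign of the medians. Where a library was left out, the lone library of its group was assumed to vary like the others. With 2 libraries per group the median half-width of a member's 95% interval was 0.33 with shRNA1 and 0.46 with shRNA2 on the log2 scale, which limits what could be called.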
